A study of Arabidopsis thaliana with 24 samples.

Results

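The transcripts described here were late-induced in hypocotyls of Arabidopsis thaliana treated with the synthetic auxin picloram: they were flat after 30 min and were the 200 with the largest increase after 120 min. They were chosen by the measured values of experiment “a”, from 30361 transcripts. Of these, 15514 had a mean level of at least 10 on the log2 scale, 13020 of those differed by less than 0.3 log2 units between picloram and DMSO at 30 min, and the 200 largest differences at 120 min were taken. Experiment “b”, on another chip and other hypocotyls, was not used for the choice. It held a value for 199 members, the exception being AT3G24720.

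RNA was measured on NimbleGen arrays in 24 samples from 5-day-old seedlings grown in long days and moved 2 h after lights on to 5 µM picloram or to DMSO, the solvent. Experiment “a” held wild-type Col-0 hypocotyls after picloram or DMSO for 30 min and for 120 min, with 3 samples per group and about 400 dissected hypocotyls per sample. Experiment “b” held hypocotyls of afb5-5, a T-DNA insertion line labelled as resistant to picloram and the only mutant line used, and of wild type, each on picloram or DMSO for 2 h, with 3 samples per group and about 700 hypocotyls per sample. In experiment “a” the RNA was amplified, and every picloram sample carried the dye Cy3 and every DMSO sample Cy5, so an effect of the dye and one of picloram cannot be told apart there. Experiment “b” used unamplified RNA and Cy3 alone. A hypocotyl holds several cell types, and more cells of one type cannot be told apart from more RNA per cell.

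Auxin is perceived by F-box proteins of the TIR1/AFB family, which on binding auxin mark the Aux/IAA repressors for destruction and so release the ARF transcription factors. In the study, AFB4 and AFB5 are the members of this family with a particular affinity for picloram, and the picloram signal is attributed to AFB5. The transcripts that answer within minutes, such as those of the SAUR, Aux/IAA and GH3 families, are the best known auxin targets, and slower transcripts follow them. The hypocotyl lengthens by expansion of cells already formed, which requires loosening and new synthesis of the cell wall, and ethylene, brassinosteroids and light act on the same growth.

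In experiment “a” the members averaged 1.19 to 3.91 log2 units more on picloram than on DMSO at 120 min, with a median of 1.44, while the differences at 30 min ran between -0.30 and 0.30. These values chose the members and are given as a description. The difference at 120 min had a part on each side. Between 30 and 120 min the picloram mean was higher at 120 min in all 200 members, with a median change of 0.95, and the DMSO mean was lower at 120 min in 169 of 200, with a median change of -0.58. Over the 12820 transcripts that passed the same level and 30 min limits and were not members, the medians were -0.03 on picloram and -0.01 on DMSO. All 3 picloram samples lay above all 3 DMSO samples at 120 min in 199 members, where the same held for 17.3% of all transcripts on the chip.

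**Figure D1:**
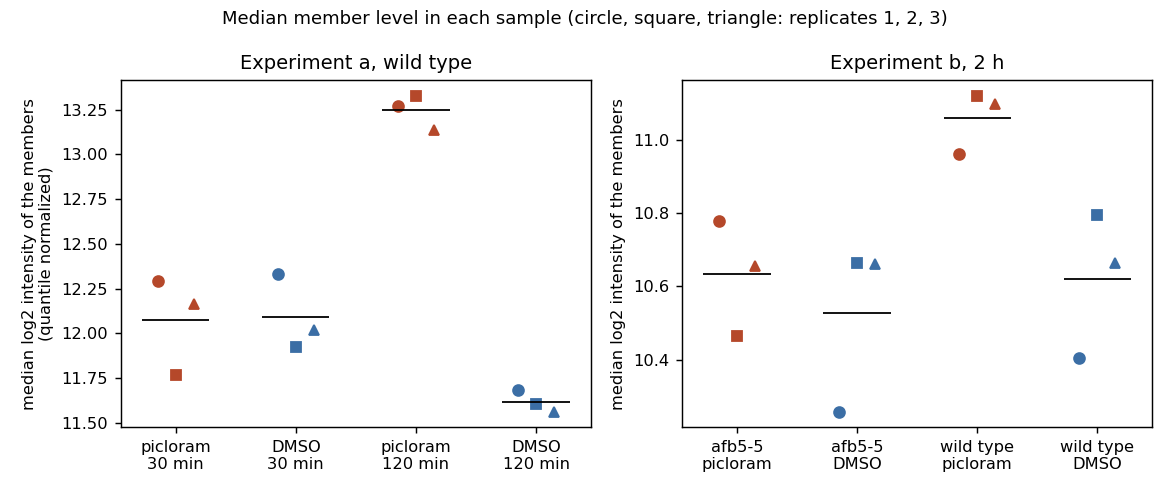
Median log2 intensity of the members in each sample, for the 200 members of experiment “a” after quantile normalization (left) and the 199 in experiment “b” (right). Red points are picloram, blue points are DMSO, and the bar is the mean of 3 samples. In experiment “a” the 3 picloram samples at 120 min sat between 13.1 and 13.3 and the 3 DMSO samples between 11.6 and 11.7. In experiment “b” the 3 wild-type picloram samples, at 10.96 to 11.12, lay above the other 9.

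The largest differences of the selection belonged to transcripts of unlike function. SOMNUS (SOM, AT1G03790), a CCCH zinc finger protein known as a repressor of light-dependent seed germination, had log2 levels of 13.56, 13.62 and 13.55 in picloram samples at 120 min, against 9.77, 9.69 and 9.56 in DMSO samples. At 30 min its levels were 9.65, 8.93 and 9.41 on picloram and 9.84, 9.78 and 8.82 on DMSO. Every sample of SOM outside the 120 min picloram group was below 10, so it passed the level limit only through that group. How many other members did so was not counted. The ethylene receptor gene ERS2 (AT1G04310) had 13.82, 14.01 and 13.60 on picloram and 10.57, 10.73 and 10.46 on DMSO at 120 min. The kinesin gene ATK4 (AT5G27000), a motor protein of microtubules, had 13.77, 13.50 and 13.15 on picloram and 10.34, 9.98 and 10.59 on DMSO. No picloram sample of these 3 genes overlapped a DMSO sample at 120 min.

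One of the leading members did not separate its samples. G3Pp2 (AT4G25220), a glycerol-3-phosphate permease family gene, had 13.42, 13.36 and 8.91 in picloram samples at 120 min and 9.45, 9.10 and 9.72 in DMSO samples, and so entered by 2 of its 3 picloram samples. It was the single member whose groups overlapped in experiment “a”. Summed linear intensities of 4 root hair and root epidermis markers (EXPA7, EXPA18, COBL9 and IRT1) ran from 1022 to 5853 on picloram and from 375 to 2072 on DMSO at 120 min, and from 449 to 1246 on picloram and 378 to 529 on DMSO at 30 min. Their part in the 120 min differences was not tested.

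In wild type of experiment “b”, the independent samples, 37 of 199 members (18.6%) were called higher on picloram after 2 h and none lower, at an adjusted p under 0.05 by limma (Benjamini-Hochberg, 37118 transcripts tested). Of all transcripts, 1.71% were called higher and 0.458% lower. At an unadjusted p under 0.05, 92 members were higher and 0 lower, where 7.71% of the chip was higher. The change was above 0 in 173 members (86.9%), against 46.5% of all transcripts, and its median was 0.43 log2 units, against -0.03 over the chip. Among the transcripts that passed the level and 30 min limits and were not members, 274 of 12756 (2.15%) were called higher, with a median change of 0.09. All 3 picloram samples lay above all 3 DMSO samples in 96 members, where this held for 10.8% of the chip.

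The changes in experiment “b” were mostly smaller than those that chose the members. In 14 members the wild-type change exceeded the 120 min difference of experiment “a”, and in 146 it came to less than 50% of it. Of the 50 members with the largest 120 min differences, 17 were called, against 7 of the next 49 with a value, 7 of the next 50 and 6 of the last 50. Across the 199 members the 2 changes had Pearson's r of 0.14 and Spearman's rho of 0.18, as a description over genes, which are not independent replicates.

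The count in wild type depended on the samples and the fit. Without the third wild-type picloram sample it was 24 of 199 (12.1%). The replicate numbers paired the wild-type samples, and with the number as a block in a fit of wild type alone the count was 90 of 199 (45.2%), when 7.31% of the chip was called higher. The same block in the fit of all 12 samples gave 52 of 199 (26.1%), with 2.3% of the chip called higher. That fit gives both genotypes the same replicate effect, although the numbers did not pair the afb5-5 samples (correlations of 0.04 to 0.18). Of 51 members given with their own values and not called, 22 were called higher in the fit of wild type alone with the block and 1 lower. That fit called 5961 of the 37118 transcripts, 2712 of them higher and the larger part lower. Among all 199 members with a value it called 1 lower.

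The largest called changes in wild type were in transcripts that ranked 60 and 180 among the 200 in experiment “a”. AT4G30180, annotated as a transcription factor, had log2 levels of 8.90, 9.17 and 9.12 in wild type on picloram and 6.31, 6.38 and 6.53 on DMSO, a change of 2.66 ± 0.19 (SE, n = 3 per group, adjusted p = 4e-05 by limma). AT2G18690, a gene with no assigned function, had 9.84, 9.97 and 9.67 on picloram and 6.73, 7.15 and 7.32 on DMSO, a change of 2.76 ± 0.30 (SE, n = 3 per group, adjusted p = 0.000699 by limma). The smaller change of its 2 splice forms was 1.42. In both genes the wild-type picloram samples stood apart from every other sample, including all 6 of afb5-5.

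PGIP1 (AT5G06860), which encodes an inhibitor of the pectin-digesting polygalacturonases, had 10.66, 10.08 and 10.49 in wild type on picloram and 7.54, 7.75 and 8.18 on DMSO, a change of 2.58 ± 0.35 (SE, n = 3 per group, adjusted p = 0.00239 by limma). The cytochrome P450 gene CYP81D8 (AT4G37370) had 12.22, 11.96 and 12.23 on picloram and 10.27, 9.78 and 10.28 on DMSO, a change of 2.03. CRK41 (AT4G00970), a cysteine-rich receptor-like kinase, had 8.95, 9.43 and 9.41 on picloram and 6.94, 7.35 and 7.35 on DMSO, a change of 2.05. Picloram and DMSO samples of wild type were separate in each. The other 5 of the 10 largest called changes lay between 1.67 and 2.21: the pectinesterase gene AT3G10720, the pectin methylesterase gene PME41 (AT4G02330), the protein phosphatase 2C family gene AT5G66080, the disease resistance family gene AT2G34930 and the glycosyl transferase gene AT4G19460.

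**Figure D2:**
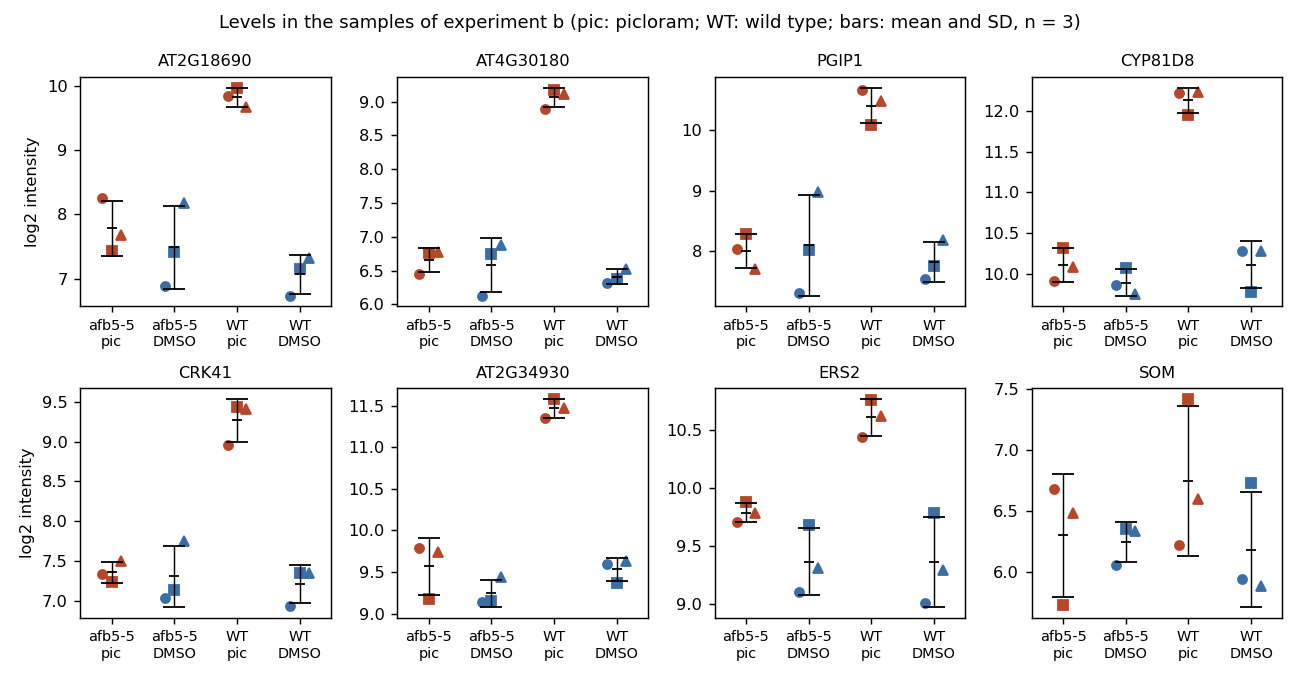
Log2 intensity of 8 members in the 12 samples of experiment “b”, with red points for picloram (pic), blue points for DMSO, and a bar for the mean and SD of 3 samples. In 7 of the 8 the wild-type (WT) picloram samples lay above all others, while those of SOM, at 6.22 to 7.42, overlapped the DMSO samples.

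Rank in experiment “a” and call in experiment “b” parted in several of the leading members. SOM, first by its 120 min difference, had 6.22, 7.42 and 6.59 in wild type on picloram and 5.94, 6.73 and 5.88 on DMSO, a change of 0.56 ± 0.34 (SE, n = 3 per group, adjusted p = 0.464 by limma). It was called in the fit of wild type alone with the replicate block, at an adjusted p of 0.0331. Its level was low on this chip, and 9 members were below the chip's lower quartile, 3 of them called. ERS2 was called with 10.44, 10.76 and 10.62 on picloram and 9.01, 9.78 and 9.30 on DMSO, a change of 1.25 (adjusted p = 0.00771 by limma), and so was ATK4 with 9.80, 9.97 and 9.53 on picloram and 8.26, 8.57 and 8.55 on DMSO, a change of 1.30 (adjusted p = 0.00223 by limma).

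The rest of the 10 members with the largest 120 min differences gave 1 more call. LRX2 (AT1G62440), a leucine-rich repeat extensin of the cell wall, was called at 1.18. The transferase family gene AT2G39980 at 0.74, the methionine gamma-lyase gene MGL (AT1G64660) at 0.98 and the tolB-related gene AT4G01870 at 0.91 missed the threshold. AT1G05020, a clathrin assembly family gene, at 0.20 and ATCG00120, the chloroplast gene for the alpha subunit of ATP synthase, at 0.13 also missed it. MGL and AT2G39980 were called with the replicate block in the fit of all 12 samples, at adjusted p of 0.0104 and 0.0471.

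The 5 lowest changes in wild type were all uncalled. G3Pp2 had 10.36, 9.73 and 9.97 on picloram and 11.09, 10.78 and 10.35 on DMSO, a change of -0.72 ± 0.36 (SE, n = 3 per group, adjusted p = 0.389 by limma), the opposite sign to its 120 min difference of 2.47 in experiment “a”. In a fit of wild type alone with the replicate block it was called lower, at an adjusted p of 0.0246 by limma. That fit called 5961 of 37118 transcripts, 2712 of them higher and the larger part lower. The summed root hair markers ran from 1134 to 1401 on picloram and from 1351 to 2409 on DMSO in wild type. COBL9, at 676 to 2014, made up most of this sum, while in experiment “a” it was at most 637 and EXPA7 and EXPA18 reached 2771 and 2605, so the sums of the chips are not carried by the same genes. AT3G51400 at -0.59, AT1G62760 at -0.43, AT2G24760 at -0.39 and the chloroplast gene ATCG00520 at -0.22 made up the rest. Of the 199 members, 26 had a change below 0.

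In afb5-5, picloram changed no member past the threshold, and no transcript of the chip was called either (0%). At an unadjusted p under 0.05, 11 members were higher and 0 lower, where 0.528% of the chip was higher, and 384 transcripts of the chip (1.03%) passed in either direction. The median change of the members was 0.09 log2 units, against a chip median of -0.001, and the change was above 0 in 147 members (73.9%), against 49.7% of the chip. Picloram samples lay above DMSO samples without overlap in 13 members, where this held for 1.73% of the chip. The sign of the median rested on 1 sample: without the first afb5-5 DMSO sample, in which the median member was at 10.26 against 10.66 in both others, the median change was -0.01. The medians of the same-numbered differences were 0.44, -0.17 and 0.06 in afb5-5, where the numbers did not pair the samples, and 0.48, 0.33 and 0.43 in wild type.

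The difference between genotypes was tested directly. For the interaction, coded as the wild-type change minus the afb5-5 change, 4 members of 199 were called, all with the larger change in wild type, where 0.097% of the chip was called in that direction and 0.00539% in the other. At an unadjusted p under 0.05, 48 members had the larger change in wild type and 0 in afb5-5, where 2.92% of the chip had the larger change in wild type. The 4 were AT4G30180 at 2.58, CRK41 at 2.00, CYP81D8 at 1.81 and AT2G34930 at 1.61, with adjusted p of 0.00318, 0.0332, 0.0205 and 0.0406 by limma. Of the 12 fits that left out 1 sample, AT4G30180 kept this call in all, while AT2G34930 lost it in 12, CRK41 in 10 and CYP81D8 in 5, with the highest adjusted p for each without the third wild-type picloram sample, at 0.146, 0.136 and 0.1. With the replicate block the count was 2 of 199, where 0.0781% of the chip was called.

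The levels of those 4 genes in afb5-5 stayed near those of the DMSO samples. AT4G30180 had 6.45, 6.75 and 6.77 on picloram and 6.12, 6.75 and 6.88 on DMSO in afb5-5. CYP81D8 had 9.90, 10.32 and 10.08 on picloram and 9.85, 10.06 and 9.74 on DMSO, and CRK41 had 7.34, 7.24 and 7.50 on picloram and 7.04, 7.14 and 7.75 on DMSO. AT2G34930 had 9.79, 9.18 and 9.74 on picloram and 9.15, 9.15 and 9.44 on DMSO. In each of the 4, the picloram and DMSO samples of afb5-5 overlapped. The largest interaction by size, 2.67 in PGIP1, missed the threshold at an adjusted p of 0.0982 by limma. Its afb5-5 DMSO samples were at 7.31, 8.01 and 8.98. The interactions of AT2G18690 at 2.47 and of the lectin family gene AT5G18470 at 1.86 missed it too.

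On picloram, 31 of 199 members (15.6%) were called lower in afb5-5 than in wild type and none higher, where 0.978% of the chip was called lower in afb5-5 and 0.264% higher. Without the second or the third wild-type picloram sample, or the third afb5-5 picloram sample, the count was 17, 15 and 16. In a fit of these 2 groups alone it was 19, and with the replicate block in that fit 0, as over the whole chip. On DMSO, 0 members and 0 transcripts of the chip were called between the genotypes, with 1 member and 338 transcripts (0.911%) at an unadjusted p under 0.05. Both comparisons share samples with those above. Of the 37 members called in wild type, 26 were also called between the picloram-treated genotypes, and 35 had an unadjusted p under 0.05 for the interaction. Over the chip these shares were 0.978% and 2.92%, each in the direction of the larger wild-type value. All these comparisons use the same wild-type picloram samples, so an overlap is built in for any transcript called in wild type. The matching share among all transcripts called in wild type was not counted.

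**Figure D3:**
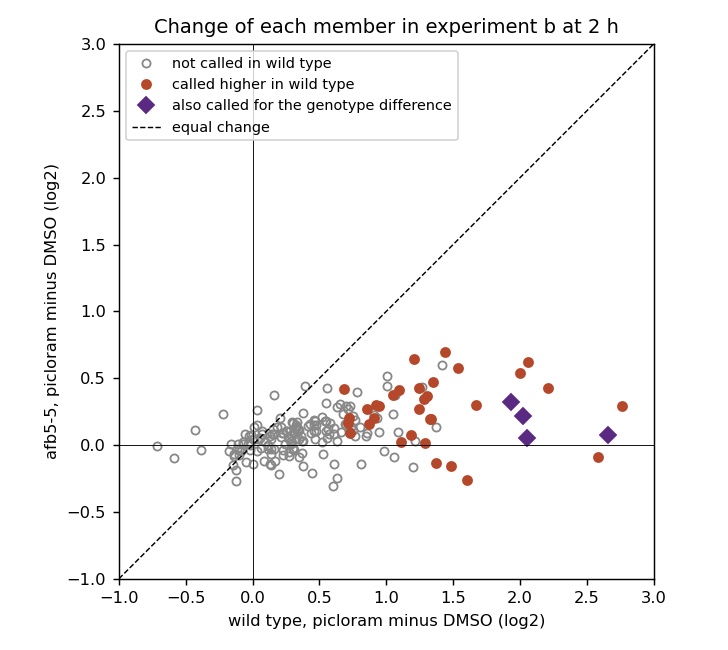
Change of each of 199 members between picloram and DMSO at 2 h in experiment “b”, on the log2 scale, in wild type (horizontal) and afb5-5 (vertical). Filled red points are the members called higher in wild type only, purple diamonds the 4 that were also called for the difference between genotypes, and the dashed line marks equal change. All 37 called members lay under the line, and no member exceeded 0.70 in afb5-5. The 37 were picked by their wild-type change, which was at least 0.687, so their place under the line largely follows from that choice.

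Most members called in wild type had small values above 0 in afb5-5. Of these 37, 33 had a change above 0 in afb5-5, with a median of 0.27 beside 1.30 in wild type, and in 12 the 3 afb5-5 picloram samples were all above the 3 DMSO samples, where this held for 1.73% of the chip. The first afb5-5 DMSO sample, on which the sign of the median over all members rested, is part of these values. Over all 199 members the changes in the 2 genotypes had Pearson's r of 0.46 and Spearman's rho of 0.50, a description over genes measured in the same 12 samples.

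The 5 largest changes in afb5-5 did not pass the test. ZF14 (AT1G58340), a MATE-type transporter gene, had 10.59, 10.13 and 10.56 in afb5-5 on picloram and 9.59, 9.95 and 9.65 on DMSO, a difference of 0.70, beside 1.44 in wild type. MYB55 (AT4G01680), a MYB family transcription factor, had 10.34, 10.30 and 10.48 on picloram and 9.31, 9.79 and 10.09 on DMSO in afb5-5, a difference of 0.64, beside 1.21 in wild type. PME41 differed by 0.62 in afb5-5 and 2.06 in wild type, the receptor-like kinase gene AT2G41820 by 0.60 in afb5-5 and 1.41 in wild type, and MLO4 (AT1G11000), a membrane protein gene of the MLO family, by 0.58 in afb5-5 and 1.53 in wild type. The picloram samples of afb5-5 were above its DMSO samples in ZF14, MYB55, MLO4 and PME41. In wild type all but AT2G41820 (adjusted p = 0.0523 by limma) were called.

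Cell wall genes made up 5.0% of the members and 1.47% of the transcripts within the level and 30 min limits. These 10 members all had a change above 0 in wild type, and 5 were called. Over the 376 wall genes of the chip, 40 (10.6%) were called higher in wild type and 3 lower. The members covered several wall polymers. Of the pectin genes in the list, PGIP1 and PME41 were called at 2.58 and 2.06, and the called pectinesterase gene AT3G10720, at 2.21, was not matched by the list. Xyloglucan, the main polymer that tethers cellulose in this tissue, was represented by CSLC04 (AT3G28180), which makes its glucan backbone, GT18 (AT5G62220), a galactosyl transferase of its side chains, and XYL1 (AT1G68560), a xylosidase that trims them.

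CSLC04 was called, with 13.61, 13.65 and 13.72 in wild type on picloram and 12.71, 12.75 and 12.76 on DMSO, a change of 0.92 ± 0.12 (SE, n = 3 per group, adjusted p = 0.00229 by limma). In afb5-5 it had 12.92, 12.91 and 12.89 on picloram and 12.43, 12.61 and 12.78 on DMSO. The wild-type picloram samples were the highest of the 12. GT18 differed by 0.78 and XYL1 by 0.11 in wild type, neither called, though GT18 was with the replicate block in the fit of all 12 samples (adjusted p = 0.0432). MUR3 (AT2G20370), another xyloglucan galactosyl transferase, was a member outside the list and differed by 0.58 (adjusted p = 0.193 by limma).

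Genes tied to cellulose and related glucans were mostly uncalled. CSLD3 (AT3G03050) and CSLD2 (AT5G16910), cellulose synthase-like genes known from root hair growth, had wild-type changes of 0.87, called, and 0.60, not called. CSLD3 lost its call in 7 of 12 fits that left out 1 sample, with an adjusted p of up to 0.144. CSI1 (AT2G22125), which links cellulose synthase to microtubules, had 13.52, 13.74 and 13.39 on picloram and 13.13, 13.42 and 12.98 on DMSO, a difference of 0.37 (adjusted p = 0.345 by limma). COBL7 (AT4G16120), of the COBRA family, differed by 0.66 and was not called, and was called with the replicate block in the fit of all 12 samples (adjusted p = 0.0361). LRX2, with 14.02, 13.75 and 13.90 on picloram and 13.19, 12.41 and 12.53 on DMSO, was called, and lost its call in 4 of 12 such fits, with an adjusted p of up to 0.0852. The actin nucleator formin AFH1 (AT3G25500) differed by 0.76 and was not called, which left ATK4 as the called member of 2 in the cytoskeleton list. Of the 163 genes of that list on the chip, 6 (3.68%) were called higher.

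The ethylene list made up 2.5% of the members, 5 in number and both ERS receptors among them, and 0.323% of the transcripts within the level and 30 min limits. In this pathway the receptors hold the kinase CTR1 active until ethylene binds, and EIN2 carries the signal onward when CTR1 stops. ERS2 was the called member. ERS1 (AT2G40940) had 12.38, 12.91 and 12.55 in wild type on picloram and 12.04, 12.63 and 12.21 on DMSO, a difference of 0.32 (adjusted p = 0.472 by limma). CTR1 (AT5G03730), a member outside the list, differed by 0.27, EIN2 (AT5G03280) by -0.14, EER4 (AT1G17440), a gene named for enhanced ethylene response, by 0.76, and AT1G77330, an ACC oxidase gene of ethylene synthesis, by 0.72, all uncalled. EER4 and AT1G77330 were called in the fit of wild type alone with the replicate block (adjusted p = 0.0178 and 0.0151). Over the list, 7 of 76 genes (9.21%) were called higher in wild type and 0 lower.

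Of the brassinosteroid list, 3 of 92 genes on the chip were members and 1 was called. They were 1.5% of the members against 0.484% of the transcripts within the level and 30 min limits. Over the list, 4 genes (4.35%) were called higher in wild type and 0 lower. BSK5 (AT5G59010), a kinase of the brassinosteroid signalling kinase family, had 13.32, 13.35 and 13.38 in wild type on picloram and 12.28, 11.92 and 11.79 on DMSO, a change of 1.35 ± 0.15 (SE, n = 3 per group, adjusted p = 0.000699 by limma). Its afb5-5 levels were 12.31, 12.00 and 12.26 on picloram and 11.78, 11.71 and 11.66 on DMSO, which did not overlap either. BEH2 (AT4G36780), a homologue of the transcription factors BES1 and BZR1, differed by 0.56 and BSL2 (AT1G08420), a phosphatase that acts on their pathway, by 0.14, neither called. BIM1 (AT5G08130), a partner of BES1 that the list did not hold, was called at 1.33 (adjusted p = 0.000828 by limma), with 12.23, 12.06 and 12.18 on picloram and 10.75, 11.02 and 10.71 on DMSO. The gibberellin list held 0 members, with 5 transcripts within the level and 30 min limits, while 5 of its 26 genes on the chip (19.2%) were called higher in wild type. The 2 members of the cytokinin list were EIN2 and EER4, which the ethylene list also held. They were 1.0% of the members against 0.269% of the transcripts within the limits.

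The auxin list held 3 members of 187 genes on the chip, none called, although 24 genes of that list (12.8%) were called higher in wild type. Only 63 transcripts of the list were within the limits of the choice. The 3 were 1.5% of the members against 0.484% of the transcripts within the limits. No member was a SAUR, Aux/IAA or GH3 gene once AT5G01830 was left out. The RefSeq symbol of AT5G01830, SAUR21, is also a synonym of another gene, and the study's annotation gives it as an armadillo and U-box protein. The SAUR, Aux/IAA and GH3 families answer within minutes, and the choice removed transcripts that already differed at the earlier time. Their absence is therefore partly built in and is not read as a result. ARF19 (AT1G19220), an activating auxin response factor, had 11.85, 11.94 and 11.94 in wild type on picloram and 11.10, 11.58 and 11.39 on DMSO, a difference of 0.55 (adjusted p = 0.1 by limma). PIN4 (AT2G01420), an auxin efflux carrier, differed by 0.70 (adjusted p = 0.124 by limma). Both were called with the replicate block in the fit of all 12 samples (adjusted p = 0.0478 each). ARF6 (AT1G30330), another activating response factor, differed by -0.13. In the abscisic acid and jasmonate list, the phosphatase genes ABI1 (AT4G26080) and ABI2 (AT5G57050) differed by 0.17 and 0.52 and the ribonuclease gene AHG2 (AT1G55870) by 0.54, none called of 3. Over that list, 4 of 116 genes (3.45%) were called higher and 2 lower. ABI2 and AHG2 were called in the fit of wild type alone with the replicate block (adjusted p = 0.0241 and 0.0273).

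**Figure D4:**
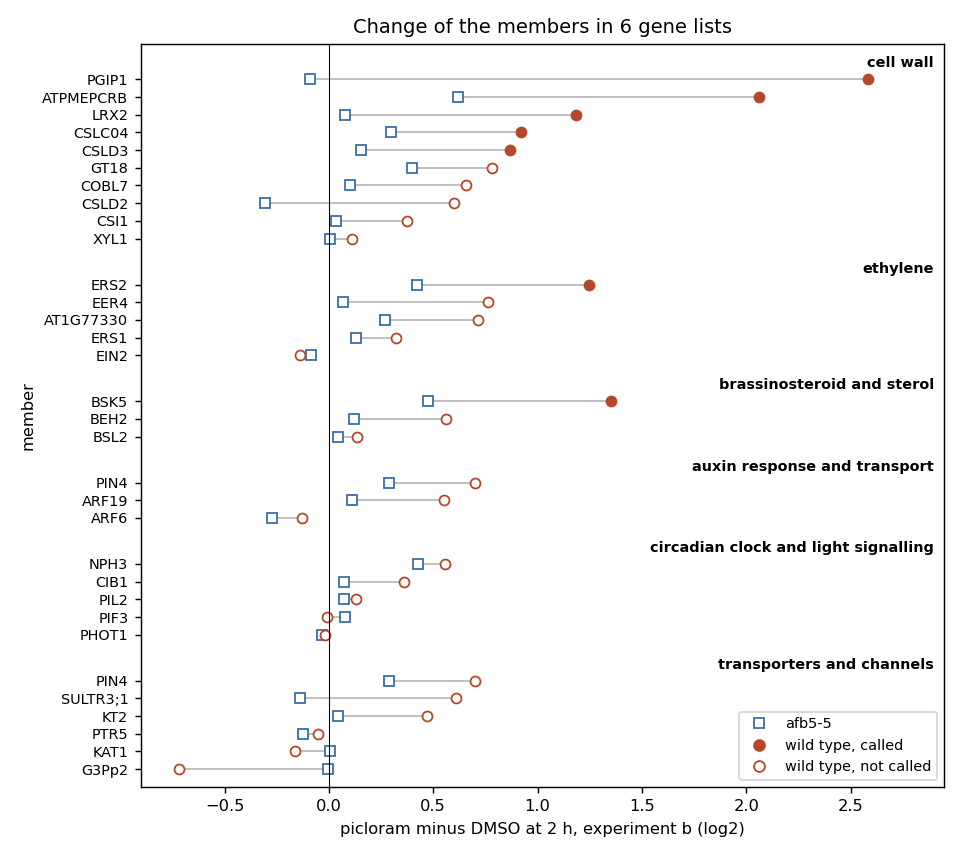
Change between picloram and DMSO at 2 h of the members in 6 of the gene lists, on the log2 scale in experiment “b”. Open squares are afb5-5, filled circles are wild-type changes that were called, and open circles wild-type changes that were not; PME41 is shown under its symbol ATPMEPCRB. Each of the 10 cell wall members had a wild-type change above 0, and none of the light or transporter members was called.

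Light signalling and transport genes were among the members without a call in wild type. The light and clock list held 5 members, with PIL2 (AT3G62090), a phytochrome-interacting factor also known as PIF6, at 0.13, the cryptochrome-interacting factor CIB1 (AT4G34530) at 0.36, the blue light receptor PHOT1 (AT3G45780) at -0.02, its partner NPH3 (AT5G64330) at 0.56, and the phytochrome-interacting factor PIF3 (AT1G09530) at -0.01. They were 2.5% of the members against 0.399% of the transcripts within the level and 30 min limits, and of the 96 genes of the list on the chip 0 were called higher in wild type and 5 lower. PHOT1 had 12.17, 12.27 and 12.08 in wild type on picloram and 12.10, 12.16 and 12.33 on DMSO, against a 120 min difference of 1.44 in experiment “a”. The transporter list held 6 members, 3 of them with a change above 0, with the potassium channel gene KAT1 (AT5G46240) at -0.16, the potassium transporter gene KT2 (AT2G40540) at 0.47 and the sulfate transporter gene SULTR3;1 (AT3G51895) at 0.61. The 6 were 3.0% of the members against 2.565% of the transcripts within the level and 30 min limits, a nearly equal share. Of the 598 genes of the list on the chip, 12 (2.01%) were called higher and 6 lower.

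Transcription factors and kinases gave both calls and misses. The transcription factor list held 9 members, all with a wild-type change above 0 and 2 called, where 4.09% of that list was called higher. The called members were MYB55 at 1.21 and HB52 (AT5G53980), a homeodomain-leucine zipper gene, at 1.24 (adjusted p = 0.0436 by limma). HB52 lost its call under quantile normalization (adjusted p = 0.0656) and in 10 of 12 fits that left out 1 sample, and MYB55 without the second or the third wild-type picloram sample (0.0604 and 0.0643). LBD18 (AT2G45420), known from lateral root formation, HB-8 (AT4G32880), a marker of vascular precursor cells, and GL2 (AT1G79840), a regulator of epidermal cell fate, differed by 0.48, 0.32 and 0.94 and were not called. The kinase and phosphatase list held 14 members, 7.0% of the members against 3.42% of the transcripts within the limits, all above 0 and 5 called, where 3.06% of that list was called higher. Among the called were HAE (AT4G28490), a receptor kinase of organ abscission, with 11.23, 11.30 and 11.65 in wild type on picloram and 10.32, 10.31 and 10.27 on DMSO, and TPS11 (AT2G18700), a trehalose-phosphate synthase family gene, at 1.11. TPS11 lost its call in 3 of 12 fits that left out 1 sample. The receptor-like kinase gene AT5G56040 differed by 0.32 and was not called.

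A pair of AT-hook genes known to restrain hypocotyl growth were both members outside the lists. ESC (AT1G20900) was called at 0.69 ± 0.13 (SE, n = 3 per group, adjusted p = 0.0185 by limma), with 11.72, 11.35 and 11.47 in wild type on picloram and 10.81, 10.84 and 10.84 on DMSO, the smallest of the 37 called changes, and lost its call in 5 of 12 fits that left out 1 sample. SOB3 (AT1G76500) differed by 0.34 and was not called. Genes named after their values had been seen were MUR3, CSLC04, CSLD2, COBL7, GT18, BIM1, HAE, LBD18, HB-8, GL2, ESC and SOB3. Of the 26 called members examined singly, 20 were called in every fit that left out 1 sample. In all, 58 of the 200 members fell in at least 1 of the 23 lists, 15 lists held a member, and 142 members were in none. The lists of cytosolic ribosomal proteins, chaperones, the secretory pathway, cell cycle, gibberellin, mitochondria, lipids and photosynthesis matched none. In that order they made up 0.2535%, 0.584%, 1.23%, 0.599%, 0.0384%, 0.645%, 1.27% and 1.48% of the transcripts within the level and 30 min limits. With shares this small, the lack of members is not read as a result. The chloroplast genes ATCG00120 and ATCG00520, which the reference table lacks, could not be matched to any list. The nucleolin gene NUC-L2 (AT3G18610), the glutamate tRNA synthetase gene AT5G64050 and the ubiquitin protease gene UBP23 (AT5G57990) were the only members of their lists, at 0.85, 0.16 and 0.14 in wild type, uncalled.

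The members were long genes, a feature the choice had not used. Their annotated length had a median of 3732 bp for the 197 with a length, against 2495 bp for the transcripts that passed the level and 30 min limits and were not members. The members called in wild type of experiment “b” were shorter, with a median of 2825 bp for 37, than those not called, with 3900 bp for 160. Among the 66 members of 859 to 2920 bp, 19 were called (28.8%), among the 66 of 2925 to 4357 bp, 13 (19.7%), and among the 65 of 4378 to 8552 bp, 5 (7.69%), while 1.99%, 1.96% and 0.882% of the chip's loci in the same length ranges were called. The median wild-type changes in these 3 classes were 0.63, 0.53 and 0.23, and those in afb5-5 were 0.11, 0.13 and 0.04.

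The length relation had opposite signs among the members and on the whole chip. Spearman's rho between length and wild-type change was -0.37 over 197 members and 0.22 over 31993 loci of the chip, as a description over genes. In experiment “a”, length also went with the fall in DMSO samples between 30 and 120 min: the median change of the DMSO samples was -0.13 in the shortest class of members, -0.62 in the middle one and -0.69 in the longest, and rho was -0.46 over 197 members and -0.42 over 12883 transcripts within the level and 30 min limits. On picloram the medians were 1.41, 0.80 and 0.77, while over the 12883 transcripts rho between length and the picloram change was 0.20. The members were chosen by these values, which ties their picloram and DMSO changes to each other, so the medians are a description. The 146 members that moved more on picloram than they fell on DMSO had 30 of 145 called in wild type of experiment “b” (20.7%), and the 54 with the larger part on DMSO had 7 (13.0%).

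**Figure D5:**
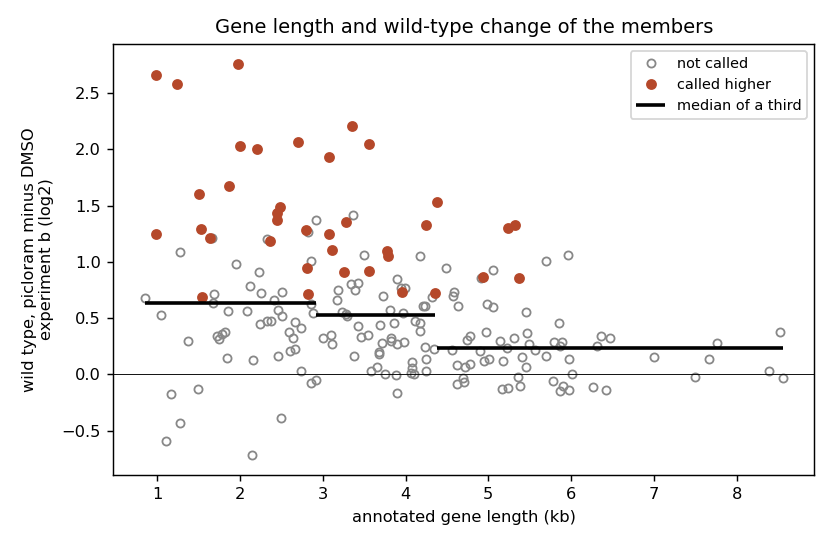
Annotated gene length in kb and wild-type change between picloram and DMSO at 2 h in experiment “b” on the log2 scale, for the members with both values. Filled points were called higher, and black bars are the medians of 3 length classes, at 0.63, 0.53 and 0.23 from the shortest to the longest.

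Members just inside the limit and transcripts just outside it had nearly equal differences. The last members in were RLK7 (AT1G09970), AT1G80020 and AT5G54200, with 120 min differences of 1.196, 1.195 and 1.194, and the first left out were IQD18 (AT1G01110), AT4G37295 and AT3G09440, with 1.193, 1.192 and 1.189. The last 3 members differed by 0.18, 0.43 and 0.46 in wild type of experiment “b”, none called. In 27 members the chip of experiment “b” held several splice forms, of which the first was used, and in 5 the forms had wild-type changes of both signs. Members lay on all 5 chromosomes, 52, 32, 38, 29 and 46 on chromosomes 1 to 5.

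The tissue check was partial. KNAT1, a marker of stem and hypocotyl, had linear intensities of at least 8309 in every sample of experiment “b”, and the seed storage genes were low, at a sum of at most 667. Summed intensities of 4 cotyledon and leaf genes were 51160 to 57840 in wild type on picloram and 60560 to 67250 on DMSO, and 56330 to 62810 on picloram and 58550 to 61070 on DMSO in afb5-5. Among them RBCS1A and RCA were within the top 1% of the chip in both experiments, and the hypocotyl is green in light. The other markers of this set ranked lower. LHCB1.1 lay above 53.8% of the chip in experiment “a” and 37.2% in “b”, and CA1 above 78.2% and 96.3%. The part of cotyledon tissue in the wild-type changes was not tested.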

How the data were processed

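Hypocotyl RNA of 24 samples, each mapped to its group by its title, was measured on NimbleGen arrays. Both deposited tables give 1 linear intensity per transcript, which the authors background-corrected and summarised; the labels name RMA and the study's methods add the R package oligo, with TAIR8 annotation for experiment “a” and TAIR10 for “b”. Array medians differed up to 1.72-fold in “a”, so its log2 values were quantile normalized, and up to 1.03-fold in “b”, used as the log2 of the deposited values with no filter and no pseudocount. Array number limits the precision. Samples pooled many hypocotyls. In the main fit, p-values and SE rest on the spread between the 3 pools within each group, as 1 estimate per transcript shared by all groups of “b”. limma also draws this estimate toward that of the other transcripts, so it is not the spread of the compared groups alone.

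The members and gene lists were chosen with earlier results of these data known. Experiment “b” was tested with limma 3.58.1 in R 4.3.3 in 1 fit of 4 groups without covariates, at an adjusted p under 0.05 over 37118 transcripts; the procedure was tested on simulated data. Loci were matched by identifier, and the first splice form was used. Names and gene lengths came from a RefSeq table (TAIR10.1), which held 197 members, and roles partly from the study's annotation; lists were matched on symbols and synonyms, with 4 matches dropped where a synonym belonged to another gene. Genes named were the 10 largest 120 min differences, the 10 largest called wild-type changes higher in all 3 pairs, the 5 lowest wild-type changes, the 5 largest interactions and afb5-5 changes, the edge of the choice, up to 4 members per list, and members the study discusses. Labels give the same replicate numbers to all groups of “b”. Deviations from group means of same-numbered picloram and DMSO samples correlated at 0.38 to 0.68 in wild type, which pairs them, and at 0.04 to 0.18 in afb5-5, which does not.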

Additional observations from a re-analysis of the deposited data

Results flagged for a closer look

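Picloram changed 4 members differently in the 2 genotypes by the interaction test of limma (adjusted p under 0.05, n = 3 per group), coded as the wild-type change minus the afb5-5 change. AT4G30180 changed by 0.08 in afb5-5 and 2.66 in wild type, a difference of 2.58 (adjusted p = 0.00318 by limma). CYP81D8 (AT4G37370) changed by 0.21 in afb5-5 and 2.03 in wild type, a difference of 1.81 (adjusted p = 0.0205 by limma). CRK41 (AT4G00970) changed by 0.05 in afb5-5 and 2.05 in wild type, a difference of 2.00 (adjusted p = 0.0332 by limma). AT2G34930 changed by 0.33 in afb5-5 and 1.93 in wild type, a difference of 1.61 (adjusted p = 0.0406 by limma). With each of the 12 samples left out in turn, AT4G30180 kept its call in every fit, while CYP81D8 lost it in 5, CRK41 in 10 and AT2G34930 in 12. With the replicate block CYP81D8 and AT2G34930 also lost it, at adjusted p of 0.0537 and 0.0507.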

How the results depend on the processing

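Values below are percentages of the members with a value unless named otherwise. Of the 200 members, 125 were kept when the 30 min difference had to be below 0.15, and 150 to 177 when 1 sample of experiment “a” was left out. The share called higher in wild type was 12.1 at FDR under 0.01, 45.2 in a fit of wild type alone with the replicate block, and 12.1 to 23.1 with 1 sample left out. The 37 calls in wild type were 25 when the fit held wild type alone without a block. The median change in wild type was 0.326 with the 30 min limit of 0.15, 0.548 for the 100 largest differences, and 0.313 to 0.554 with 1 sample left out. The median in afb5-5 ran from -0.00676, without the first DMSO sample, to 0.173. No member was called in afb5-5 or between DMSO-treated genotypes under any alternative run.

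The share called for the interaction was 3.02 with the mean over splice forms, 1.01 at a mean level of at least 11, 4.04 for the 100 largest differences, 1.01 with the replicate block, 3.52 with a variance trend and robust fit, 0.503 at FDR under 0.01, and 0.503 to 3.02 with 1 sample left out. The share called between picloram-treated genotypes was 9.55 in a fit of those 2 groups alone, 0 in that fit with the replicate block, 7.54 at FDR under 0.01, and 7.54 to 18.1 with 1 sample left out. The cause of these moves was not tested. With 1 sample left out, the uncalled wild-type changes of ABI1 (-0.1119 to 0.425), KAT1 (-0.3798 to 0.06005), ARF6 (-0.2556 to 0.05458), ATCG00520 (-0.4879 to 0.1964), PHOT1 (-0.06849 to 0.04509) and PIF3 (-0.1935 to 0.1389) changed sign, PIF3 also with array medians subtracted (0.008316). Quantile normalization or median subtraction in experiment “b”, and other scalings of experiment “a” in the choice, kept every summary within 1.5-fold of its value, and the replicate block moved no other count by more. Leaving out 1 library of a group of 3 leaves 2, and 9 members lay in the lowest quartile of signal.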
